A study of Mus musculus with 12 samples.

Results

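This account follows 10 genes of the response to osmotic stress, water transport and cell volume sensing in mouse nucleus pulposus: Nfat5, Slc5a3, Slc6a6, Akr1b3, Hspa4l, Aqp1, Aqp3, Aqp5, Lrrc8a and Trpv4. They were taken by gene symbol from the count table, which lists 32285 genes, and all 10 symbols were found once. The question put by the series is how loss of Opa1, a GTPase that fuses inner mitochondrial membranes, alters the transcriptome of the hydrated centre of the intervertebral disc. RNA was taken from tail discs of 12 mice on a C57BL/6-129/SvEv background at 12 months of age, 1 mouse per library. The 6 mice labelled WT were the controls, and in the 6 Opa1cKO mice Opa1 had been deleted at 3 months by AcanCre, a tamoxifen-activated recombinase driven from the aggrecan locus and so active in disc and cartilage cells. Both genotypes received tamoxifen at 100 mg/kg on 3 days in a row and were aged for 9 further months.

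The nucleus pulposus lies in a matrix rich in aggrecan, whose fixed charge draws in ions and water, so its cells live at high and changing osmolarity. NFAT5, also called TonEBP, is the transcription factor of the tonicity response: it raises transporters and enzymes that load cells with small organic osmolytes such as inositol, taurine and sorbitol, together with chaperones that protect proteins from salt. Aquaporins pass water, LRRC8 channels release chloride and osmolytes from swollen cells, and TRPV4 lets in calcium when cells swell or are loaded.

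Library totals were 45657321 to 53261644 counts in WT and 37268242 to 56618266 in Opa1cKO. A gene at 1 CPM (reads per 1e6 counted, after TMM scaling) therefore rests on about 37 to 57 reads. Reads of sex-linked genes contradicted the labelled sex in 4 libraries: WT 4 is labelled female and has male-type reads, and WT 5, WT 6 and Opa1cKO 4 are labelled male and have female-type reads. By reads there were 5 female and 1 male libraries in WT and 3 of each in Opa1cKO. Opa1 itself was at 69.3 to 118 CPM in WT and 30.3 to 47.7 CPM in Opa1cKO, with no overlap (log2 fold change -1.22, SE 0.116, adjusted p by edgeR = 3.05e-05). Of 12 markers of nucleus pulposus and notochord, 11 had enough reads to be tested and Noto had 0 to 23 reads a library. They summed to 45776 to 59434 CPM in WT and 44826 to 56057 CPM in Opa1cKO, led by Car3 (28954 ± 3365 CPM in WT and 30376 ± 6505 CPM in Opa1cKO, SD, n = 6) and Acan (13062 ± 2325 and 8628 ± 2968 CPM), and none of the 11 was called. Of 9 marker list sums, for this and 8 other cell types or tissues, the lowest adjusted p between genotypes was 0.247 (exact permutation test), and 2 single markers of the other lists were called, the macrophage genes Cd68 (higher) and Csf1r (lower). Log2 fold changes below are Opa1cKO over WT from edgeR's quasi-likelihood test with labelled sex as a covariate, adjusted over all 15229 genes tested. Calls are at an adjusted p below 0.05.

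Of the 10 genes, 8 had enough reads to be tested. Hspa4l rose in Opa1cKO, and none of the 8 fell. The unadjusted p was below 0.05 for 5 of the 8 genes (Slc5a3, Akr1b3, Hspa4l, Aqp1 and Trpv4), where 25.2% of all genes tested were below 0.05. Over all genes tested 10.2% were called, 5.1% higher and 5.13% lower in Opa1cKO, so 1 of 8 called was near that share. WT and Opa1cKO libraries had separate ranges for Hspa4l and Aqp1, 2 of the 8 tested genes, against 6.41% of all genes tested. The median log2 fold change was 0.17 over the 8 genes, 5 above 0 and 3 below 0, and 0.013 over all genes tested.

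Levels can be compared between genes per transcript length, in the authors' TPM, a share of transcripts corrected for length. In WT the taurine transporter Slc6a6 stood highest at 876 ± 85.8 TPM (SD, n = 6), rank 112 of 32128 symbols. Lrrc8a followed at 106 ± 8.95 TPM, then Trpv4 at 54.5 ± 8.08 TPM and Nfat5 at 53.1 ± 7.63 TPM, whose ranges overlapped. Hspa4l was at 22.7 ± 1.82 TPM. Slc5a3 at 11.9 ± 1.60 TPM and Akr1b3 at 9.12 ± 0.951 TPM overlapped each other. Aqp1 was at 1.79 ± 0.723 TPM, and Aqp5 and Aqp3 had means of 0.0955 and 0.0086 TPM. Among the 10 genes, the taurine transporter Slc6a6 stood far above the inositol transporter Slc5a3, and the water channels were the lowest. Levels of other inositol transporters were not compared. In Opa1cKO the order of the means was the same, except that Akr1b3 at 11.3 TPM stood above Slc5a3 at 9.74 TPM. Their ranges overlapped there too, at 10.3 to 12.4 TPM for Akr1b3 and 8.71 to 10.8 TPM for Slc5a3.

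**Figure D1:**
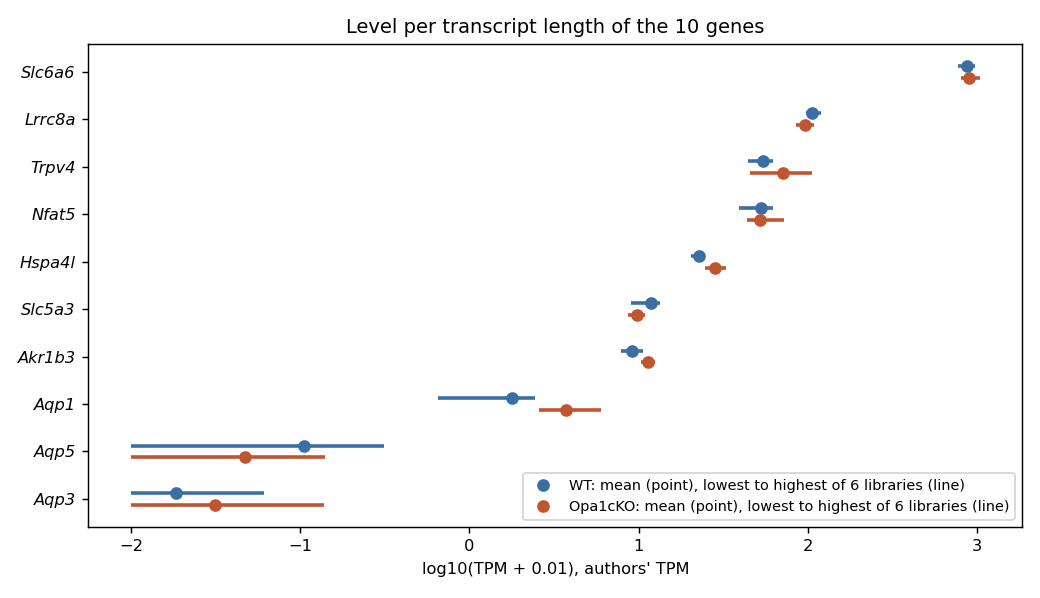
Levels of the 10 genes as log10(TPM + 0.01) in WT and Opa1cKO, with points for the mean and lines from the lowest to the highest of 6 libraries. Slc6a6 stands above the other 9 genes in both genotypes, and Aqp5 and Aqp3 reach 0 TPM, the left end of the axis.

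The regulator Nfat5 (chromosome 8, 107293470 to 107379517, mm10) was not called. It lay at 168 to 235 CPM in WT, median 221, and at 179.8 to 275 CPM in Opa1cKO, median 197. In 5 of 6 Opa1cKO libraries it was below the WT median, while Opa1cKO 6 at 275 CPM was above every other library. The log2 fold change was -0.0029 (SE 0.113, adjusted p by edgeR = 0.991), and its sign changed among alternative settings. The 3 genes most like Nfat5 across the 12 libraries, among the 13052 tested genes that averaged at least 1 CPM, were Cspp1 (Pearson r = 0.931 on log2 CPM), Lcor (0.916) and Sox5 (0.915). Genotype means were 22.7 and 22.4 CPM for Cspp1, 45.7 and 43.5 CPM for Lcor, and 71.5 and 72.7 CPM for Sox5, WT first.

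The sequence upstream of these genes is shown for Nfat5, as the regulator, and for Slc5a3 and Aqp1, as the classical target and the gene with the largest log2 fold change of the 8. Promoter sequences are from RefSeq (GRCm38.p6, the mm10 assembly), run 5′ to 3′ on the gene's strand, and the printed stretches leave out annotated exons. Capitals mark the hypoxia response core, ACGTG or GCGTG, on either strand.
Nfat5, chr8:107293220-107293469, plus strand: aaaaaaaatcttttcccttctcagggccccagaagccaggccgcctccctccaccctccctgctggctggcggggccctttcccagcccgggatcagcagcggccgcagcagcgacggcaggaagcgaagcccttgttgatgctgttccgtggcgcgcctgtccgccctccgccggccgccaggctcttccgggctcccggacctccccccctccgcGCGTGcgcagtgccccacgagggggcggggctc
Slc5a3, chr16:92058072-92058269, plus strand: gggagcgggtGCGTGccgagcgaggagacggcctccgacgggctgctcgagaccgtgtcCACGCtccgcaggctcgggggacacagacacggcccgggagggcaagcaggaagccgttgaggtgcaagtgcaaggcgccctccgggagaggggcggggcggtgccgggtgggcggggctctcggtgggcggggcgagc
Aqp1, chr6:55336049-55336298, plus strand: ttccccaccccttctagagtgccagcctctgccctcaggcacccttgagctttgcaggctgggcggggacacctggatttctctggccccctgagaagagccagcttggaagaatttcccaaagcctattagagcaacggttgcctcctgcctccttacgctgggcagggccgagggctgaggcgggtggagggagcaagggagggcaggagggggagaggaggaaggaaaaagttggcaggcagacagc
The NFAT5 core TGGAAA, searched on both strands in the 250 bases before the start, was in none of the windows of the 8 genes with an entry, and the Aqp1 window holds neither motif. It occurs in 18.6% of 32851 RefSeq promoter windows of that length, and the hypoxia core in 38.6%. The hypoxia core was found in 4 of the 8, Nfat5, Slc5a3, Aqp5 and Lrrc8a. The search took whole windows, of which annotated exons cover 98.4% in Aqp5, all in Lrrc8a, 92.4% in Hspa4l and 20.8% in Slc5a3. No match says only that these letters are not in this window.

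None of the 3 osmolyte genes was called. Slc5a3 (chromosome 16, 92058322 to 92087473), the sodium-coupled myo-inositol transporter SMIT, was at 20.2 to 31.9 CPM in WT, median 30.3, and 20.97 to 25.3 CPM in Opa1cKO, median 23.1. All 6 Opa1cKO libraries were below the WT median, but WT 4 was the lowest of all 12. The log2 fold change was -0.31 (SE 0.117, adjusted p by edgeR = 0.108), and Slc5a3 was called lower with WT 4 left out (log2 fold change -0.38, adjusted p = 0.0181). Slc5a3 shares 159 exon bases, 1.46% of its own, with Mrps6, which was at 7.21 CPM in WT and 5.49 CPM in Opa1cKO.

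Slc6a6 (chromosome 6, 91684053 to 91759066), the taurine transporter TauT, was at 1443 to 1816 CPM in WT, median 1661, and 1398 to 1857 CPM in Opa1cKO, median 1657. The ranges of the 2 genotypes lay over each other. Between genotypes the log2 fold change was 0.03 (SE 0.11, adjusted p by edgeR = 0.898). This single transporter held 0.141% to 0.178% of all counts in WT libraries and 0.137% to 0.192% in Opa1cKO libraries.

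Akr1b3 (chromosome 6, 34302434 to 34317478), aldose reductase, which makes sorbitol from glucose, was at 14.5 to 19.6 CPM in WT, median 15.9, and 18.9 to 23.5 CPM in Opa1cKO, median 20.4. All 6 Opa1cKO libraries were above the WT median and 4 were above the highest WT library. Its log2 fold change was 0.30 (SE 0.105, adjusted p by edgeR = 0.0879), and DESeq2 called the gene higher (adjusted p = 0.0443). The paralogs Akr1b7, Akr1b8 and Akr1b10 are similar in sequence, and the handling of reads shared among copies was not stated in the labels.

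Hspa4l (chromosome 3, 40744495 to 40796103), an HSP110-family chaperone first described as an osmotic stress protein, rose. It was at 57.3, 62.8, 55.1, 58.7, 50.6 and 59.2 CPM in WT 1 to 6 and at 68.9, 64.9, 77.6, 72.6, 63.5 and 77.9 CPM in Opa1cKO 1 to 6. The lowest Opa1cKO library was above the highest WT library. Means were 57.3 ± 4.12 and 70.9 ± 6.19 CPM (SD, n = 6), which the fit put at 0.32 on the log2 scale (SE 0.082, adjusted p by edgeR = 0.0235). In bulk tissue, a shift in the share of cells of a type and a change in RNA per cell cannot be told apart. The call was lost without WT 5 (adjusted p = 0.0897), without Opa1cKO 6 (adjusted p = 0.105), when the 4 libraries of contradicted sex were dropped (adjusted p = 0.288), over libraries with female-type reads alone (adjusted p = 0.0665) and within each labelled sex, with log2 fold changes of 0.27 to 0.38 in those fits. The genes most like Hspa4l across the 12 libraries were D030056L22Rik (Pearson r = 0.94), Rab23 (0.934) and Mboat1 (0.925), and within genotypes these r values were 0.802, 0.788 and 0.75.

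**Figure D2:**
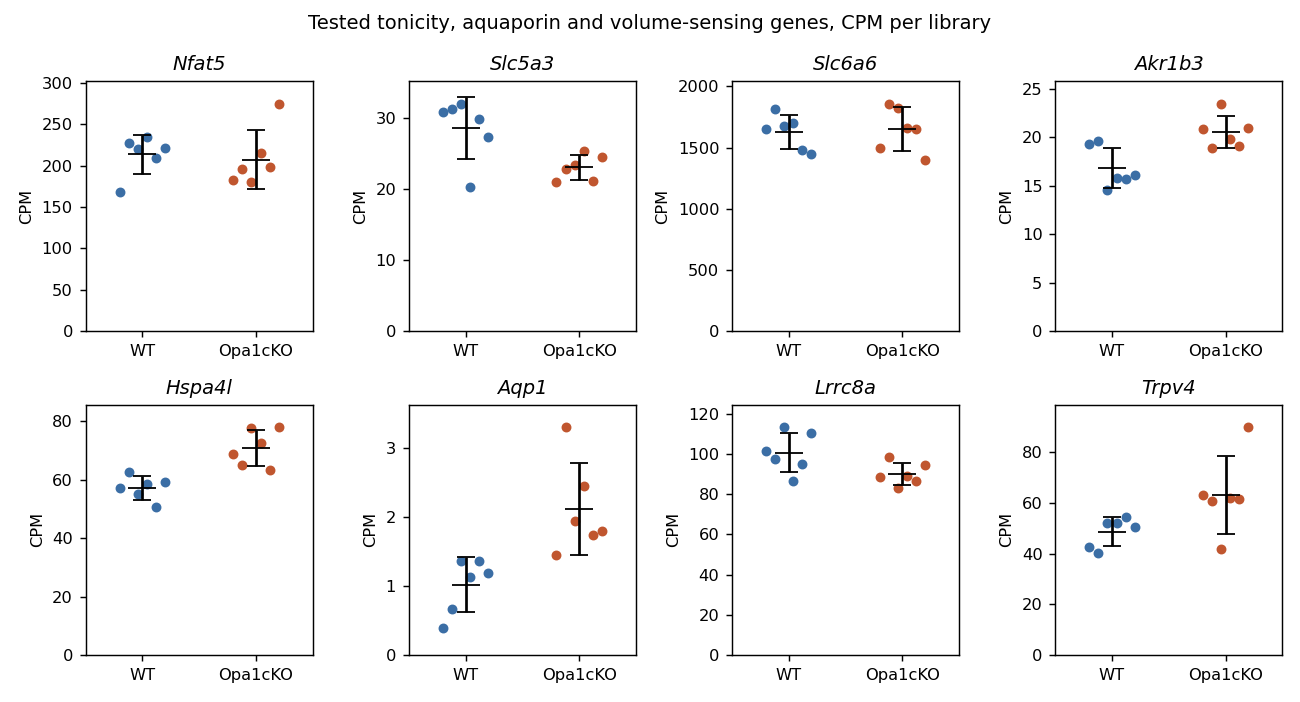
CPM per library of the 8 tested genes in WT and Opa1cKO, 6 libraries each ordered 1 to 6 from left to right, with the mean and SD in black. Hspa4l and Aqp1 are the panels without overlap, and Opa1cKO 6 is the highest Opa1cKO point for Nfat5 (275 CPM), Trpv4 (89.7 CPM) and Hspa4l (77.9 CPM).

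Among the water channels, only Aqp1 (chromosome 6, 55336432 to 55348555) had enough reads to be tested. It was at 0.398, 0.664, 1.37, 1.14, 1.37 and 1.19 CPM in WT 1 to 6 and at 1.45, 3.31, 1.95, 2.45, 1.75 and 1.80 CPM in Opa1cKO 1 to 6, resting on 21 to 63 reads a WT library and 65 to 163 an Opa1cKO library. Every Opa1cKO library was above every WT library, and Opa1cKO 1 at 1.45 CPM lay close to WT 3 and WT 5 at 1.37 CPM. The fitted difference was 1.89-fold (log2 fold change 0.92, SE 0.308) and did not pass the adjustment (edgeR adjusted p = 0.0745). It passed without the sex covariate (adjusted p = 0.0342) and with DESeq2 (adjusted p = 0.0334). Aqp1 is also a gene of small vessels and red cells. The 7 endothelial markers summed to 1.77 to 3.86 CPM in WT and 2.53 to 4.54 CPM in Opa1cKO (exact permutation p = 0.149, 0.335 adjusted over 9 lists), with Kdr, Emcn and Cldn5 at or under 3 reads a library on average. Pecam1 was at 1.66 CPM in WT and 1.79 CPM in Opa1cKO, and Vwf at 0.852 and 1.43 CPM (log2 fold change 0.59, edgeR adjusted p = 0.169). The 7 erythroid markers summed to 0.0868 to 6.77 CPM in WT and 0.324 to 2.56 CPM in Opa1cKO, with Hbb-bt, Hba-a1 and Hba-a2 at that floor. The part of these cells in the Aqp1 levels was not tested.

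Aqp3 (chromosome 4, 41092722 to 41098183), which also passes glycerol, and Aqp5 (chromosome 15, 99590782 to 99594829), a water channel of secretory epithelia, were barely detected. Aqp3 had 1 read in WT 6, 3 reads in Opa1cKO 3 and 0 in the other 10 libraries. Aqp5 had 8 reads in WT 3, 6 in WT 5 and 1 in WT 6, then 2 in Opa1cKO 5, 3 in Opa1cKO 6 and 0 elsewhere. A library with 0 reads allows a level of up to 0.0528 to 0.0807 CPM, depending on its depth (3 counts, counting error only), so no difference was detectable for either gene. None of the other 9 aquaporin genes listed had enough reads to be tested. Skin is a tissue rich in Aqp3. The 7 keratinocyte markers summed to 4.93 to 10.5 CPM in WT and 5.63 to 19.5 CPM in Opa1cKO (exact permutation p = 0.0346, 0.247 adjusted over 9 lists). Krt5, Krt14 and Lor were at or under 3 reads a library on average. Krt15 was at 2.93 CPM in WT and 8.26 CPM in Opa1cKO, and Krt10 at 2.47 and 2.28 CPM. Of the 3 tested markers of this list, 1 had a log2 fold change above 0 and 2 below 0, and none was called.

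Lrrc8a (chromosome 2, 30237715 to 30263790), the subunit every volume-regulated anion channel needs, was at 86.8 to 113 CPM in WT, median 99.6, and 82.99 to 98.5 CPM in Opa1cKO, median 89.1. All 6 Opa1cKO libraries were below the WT median, and only 1 was below the lowest WT library. Its log2 fold change was -0.17 (SE 0.0827, adjusted p by edgeR = 0.233), and the gene was called in none of the 30 alternatives. A second annotated gene on the same strand, Gm28035, covers 66.2% of the exon bases of Lrrc8a, so the split of reads between these genes is uncertain.

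Trpv4 (chromosome 5, 114622152 to 114658421) was at 40.3 to 54.5 CPM in WT, median 51.1. In Opa1cKO it was at 63.2, 60.7, 41.7, 61.9, 61.3 and 89.7 CPM in libraries 1 to 6. In 5 of 6 Opa1cKO libraries the level was above the highest WT library, and Opa1cKO 3 lay near the low end of WT. Its log2 fold change was 0.41 (SE 0.148, adjusted p by edgeR = 0.10). It was called higher without Opa1cKO 3 (log2 fold change 0.48, adjusted p = 0.0210) and over the libraries with female-type reads alone (log2 fold change 0.57, adjusted p = 0.0484). The log2 fold change was 0.22 without Opa1cKO 6 (adjusted p = 0.404). In labelled females it was 0.70 (adjusted p = 0.0924) and in labelled males 0.13 (adjusted p = 0.788). The WT libraries labelled male, WT 5 and WT 6, have female-type reads, as has Opa1cKO 4, and WT 4, labelled female, has male-type reads. The values by label therefore do not compare the sexes, and a difference between sexes was not tested.

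**Figure D3:**
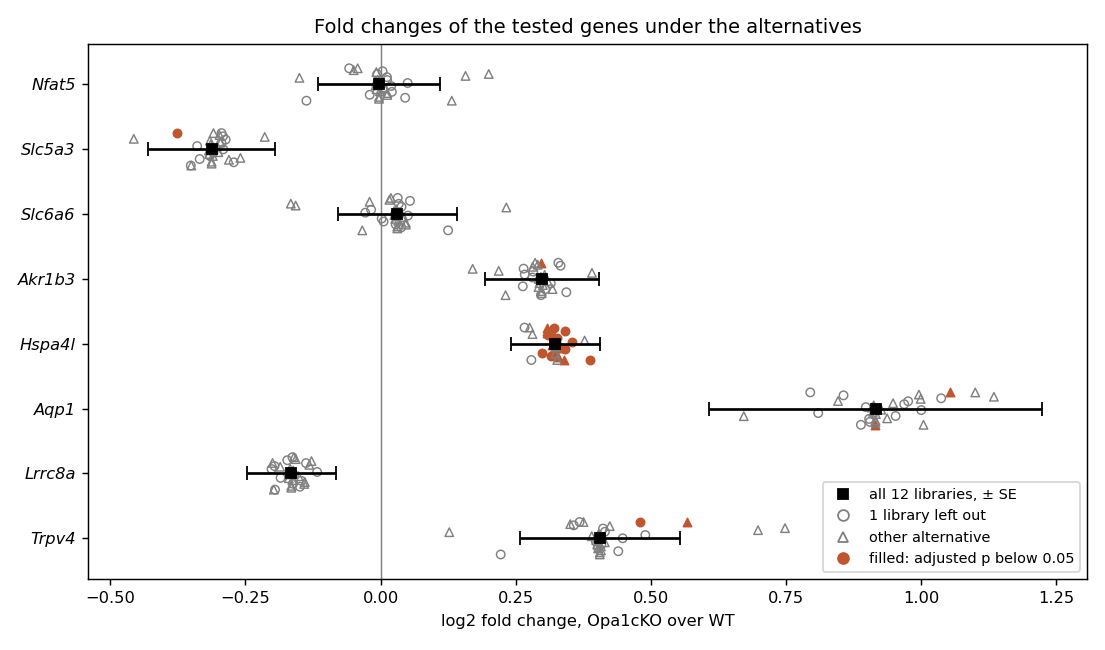
Log2 fold change (Opa1cKO over WT) of the 8 tested genes with all 12 libraries (black squares, ± SE) and under 30 alternatives, filled where the adjusted p was below 0.05. Hspa4l is filled in most alternatives, Nfat5 and Slc6a6 lie on both sides of 0, and Aqp1 stays between 0.67 and 1.13.

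Across the 12 libraries no osmolyte or chaperone gene of the set had a Pearson r above 0.1 with Nfat5 on log2 CPM: r was 0.047 for Slc5a3, -0.355 for Slc6a6, -0.30 for Akr1b3 and 0.0873 for Hspa4l. Spearman rho was 0.0979, -0.21, -0.224 and -0.021 for those genes in that order. With the genotype means removed, r was -0.0515, -0.35, -0.30 and 0.349. With the libraries farthest from the Nfat5 median (Opa1cKO 6 and WT 1) left out, Pearson r became 0.437, -0.062, -0.711 and -0.58 over 10 libraries. For Trpv4 r was 0.49, rho 0.126 and r within genotypes 0.693, and pooled r was -0.228 without those libraries, on which the positive value rested. These values share library depth and scaling, describe 12 points, and carry no test.

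Around these genes, 7 lists of related genes held 144 symbols, of which 111 were tested: 10 rose and 6 fell in Opa1cKO. That is 14.4% of the tested genes, against 10.2% of all genes tested. Over all genes tested, 5.1% were called higher and 5.13% lower, the shares to set beside each list's counts below. Removing WT 5 left 4 higher and 3 lower calls, and removing Opa1cKO 6 left 6 higher and 6 lower. Over all genes, calls went from 1558 to 1090 without WT 5 and to 819 without Opa1cKO 6. Calls lost in fits by labelled sex or without the libraries of contradicted sex are given below for some genes only.

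Of 25 tested tonicity targets and osmolyte genes, 4 rose and 1 fell, with a median log2 fold change of 0.20. The inositol pathway held a fall and a rise. Isyna1, which makes inositol phosphate from glucose 6-phosphate, fell from 6.06 to 13.3 CPM in WT, median 9.91, to 1.95 to 5.11 CPM in Opa1cKO, median 4.48, without overlap (log2 fold change -1.33, SE 0.24, adjusted p by edgeR = 0.00361). Impa2, an inositol monophosphatase that frees inositol, rose from 8.49 to 14.9 CPM to 17.1 to 52.9 CPM, also without overlap (log2 fold change 1.34, SE 0.245, adjusted p by edgeR = 0.00468). Without its highest library, Opa1cKO 6, the log2 fold change of Impa2 was 0.90. Both calls held with each library left out in turn. Without the 4 libraries of contradicted sex both were lost (adjusted p = 0.122 for Isyna1 and 0.0979 for Impa2). Both were also lost in labelled females (adjusted p = 0.0952 and 0.123), and in labelled males Isyna1 was lost (adjusted p = 0.0648) and Impa2 kept (adjusted p = 0.0191). An opposite-strand RNA, B430212C06Rik, covers 23.6% of the exon bases of Impa2, and whether the counting used strand was not stated in the labels.

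The inducible HSP70 genes Hspa1a and Hspa1b, stress chaperones that NFAT5 and HSF1 both act on, rose. Hspa1a was at 24.6 to 91.5 CPM in WT, median 40.4, and at 50.4 to 265 CPM in Opa1cKO, median 155 (log2 fold change 1.58, SE 0.37, adjusted p by edgeR = 0.0208). Hspa1b had a log2 fold change of 0.71 (SE 0.183, adjusted p = 0.0269). These are near-identical copies, so the split of reads between them is uncertain, and the ranges of both overlapped between genotypes. Each call was lost in 3 of 12 fits with 1 library left out: Hspa1a when WT 5, Opa1cKO 5 or Opa1cKO 6 was dropped (highest adjusted p 0.0615), and Hspa1b when WT 5, Opa1cKO 1 or Opa1cKO 5 was dropped (highest adjusted p 0.0787). Slc44a2, a choline transporter, rose from a median of 400.2 CPM to 553 CPM (log2 fold change 0.51, adjusted p = 0.0385), and its call was lost in 8 of 12 such fits, with a log2 fold change of 0.29 (adjusted p = 0.211) without Opa1cKO 6.

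Of 16 other chaperone genes of the HSP110 and HSP70 families and their helpers, 15 were tested, none rose and Hspa12a fell (medians 473 and 324 CPM, log2 fold change -0.43, SE 0.0969, adjusted p by edgeR = 0.0129). That call was lost without WT 5 (adjusted p = 0.0559) and without the libraries of contradicted sex (adjusted p = 0.366). It was also lost in labelled females (adjusted p = 0.465) and over libraries with female-type reads alone (adjusted p = 0.0959), and kept in labelled males (adjusted p = 0.0200). Hsph1, the closest relative of Hspa4l named here, was at 24.9 to 32.5 CPM in WT and 24.1 to 46.8 CPM in Opa1cKO (log2 fold change 0.27, adjusted p = 0.311). It was called higher with sex as the reads show it (log2 fold change 0.36, adjusted p = 0.0198) and over libraries with female-type reads alone (0.48, adjusted p = 0.0164), and was at 0.16 without Opa1cKO 4 (adjusted p = 0.485). Hspa14 had a log2 fold change of 0.31 (adjusted p = 0.0669) and Bag3, a co-chaperone, 0.21 (adjusted p = 0.258). The list's median was 0.077.

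In the list of NFAT family genes and NFAT5 partners or kinases, 27 genes were tested, 3 rose and 1 fell, with a median log2 fold change of 0.050. Map2k3, a kinase that activates p38, rose from 39.8 to 45.4 CPM in WT to 54.6 to 75.9 CPM in Opa1cKO without overlap (log2 fold change 0.53, SE 0.089, adjusted p by edgeR = 0.00245). Ddx5, an RNA helicase, rose from a median of 916 CPM to 1228 CPM (log2 fold change 0.52, adjusted p = 0.0248, lost when WT 5 or Opa1cKO 5 was left out, at adjusted p values up to 0.0732). Ppp3ca, the catalytic subunit of calcineurin, fell from a median of 544 CPM to 396 CPM (log2 fold change -0.44, adjusted p = 0.00876). Rcan1, a calcineurin inhibitor, rose from a median of 29.4 CPM to 43.1 CPM (log2 fold change 0.95, SE 0.273, adjusted p = 0.0473). Its call was lost in 10 of 12 fits with 1 library left out, and the log2 fold change was 0.49 (adjusted p = 0.242) without Opa1cKO 6, where it was highest at 102.1 CPM.

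The kinase and cotransporter pair that lets shrunken cells take up chloride fell. Stk39, the kinase SPAK, was at 289.5 to 389.9 CPM in WT, median 352, and 184 to 279 CPM in Opa1cKO, median 211, without overlap (log2 fold change -0.68, SE 0.116, adjusted p by edgeR = 0.00255). The call held with each library left out in turn. It was lost without the libraries of contradicted sex (adjusted p = 0.0633), in labelled females (adjusted p = 0.0697) and in labelled males (adjusted p = 0.0750). Slc12a2, the sodium, potassium and chloride cotransporter NKCC1 that SPAK phosphorylates, was at 917 to 1629 CPM in WT, median 1080.0, and 601 to 857 CPM in Opa1cKO, median 744, without overlap (log2 fold change -0.61, SE 0.15, adjusted p = 0.0200). Its call was lost without WT 5 (adjusted p = 0.0527) and without Opa1cKO 6 (adjusted p = 0.0742). The Slc12a2 call was also lost without the libraries of contradicted sex (adjusted p = 0.131) and over libraries with female-type reads alone (adjusted p = 0.0623). In labelled females and labelled males it was lost too (adjusted p = 0.227 and 0.0662). The kinases that activate SPAK were not called: Wnk1 had a log2 fold change of -0.28 (adjusted p = 0.152) and Wnk4 of 0.89 (adjusted p = 0.0534, called in 4 of 30 alternatives, and 0.40 with adjusted p = 0.377 without Opa1cKO 6). Of 17 tested genes of this list these 2 fell and none rose, with a median of -0.043. Over all genes tested 10.2% were called, so 2 of 17 called was near that share.

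Stk39 was also the 1 called gene, of 13 among 16 with a promoter entry, that held the longer NFAT5 consensus known as TonE, which occurs in 4.31% of promoter windows. The site begins at position -227 from the RefSeq start and is printed with its neighbours, with TonE in capitals. The GENCODE annotation starts Stk39 further upstream, and the whole window lies in its annotated exons.
Stk39, chr2:68472189-68472217, minus strand: cccagcgcgTGGAAACTTCCctggcggcg
The shorter core TGGAAA was in 4 of those 13 genes (Slc44a2, Rcan1, Stk39 and Trpv2) and the hypoxia core in 9, where any window of a gene counted. Some of these genes have more than 1 window. The shares per window (18.6% for TGGAAA, 38.6% for the hypoxia core and 4.31% for TonE) are therefore not a like comparison. In Stk39 a hypoxia core begins at position -230 and overlaps the TonE match.

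Of 14 tested anion channel genes, 2 rose and 1 fell, with a median log2 fold change of 0.27. Lrrc8b, which joins Lrrc8a in the volume-regulated channel, rose from 41.9 to 54.7 CPM in WT, median 50.6, to 56.2 to 132.8 CPM in Opa1cKO, median 77.0, without overlap (log2 fold change 0.79, SE 0.186, adjusted p by edgeR = 0.0179). Its call was lost without WT 5 (adjusted p = 0.0507) and without Opa1cKO 6 (log2 fold change 0.48, adjusted p = 0.0737). Ttyh2, of a family reported as swelling-gated channels, rose from 3.17 to 5.01 CPM to 6.26 to 11.5 CPM (log2 fold change 0.93, SE 0.189, adjusted p = 0.00738) and kept its call with each library left out. The Ttyh2 call also held without the libraries of contradicted sex (adjusted p = 0.0436). It was lost in labelled females (adjusted p = 0.0760) and in labelled males (adjusted p = 0.175). Clcn3, an endosomal chloride and proton exchanger, fell from a median of 115 CPM to 94.3 CPM (log2 fold change -0.25, SE 0.065, adjusted p = 0.0276), a call that held in 7 of 12 such fits and was lost on leaving out WT 3, WT 5, WT 6, Opa1cKO 1 or Opa1cKO 5 (highest adjusted p 0.0728). Clcn2, a swelling-activated chloride channel, had a log2 fold change of 0.49 (adjusted p = 0.0611), and was called in 8 of 30 alternatives.

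**Figure D4:**
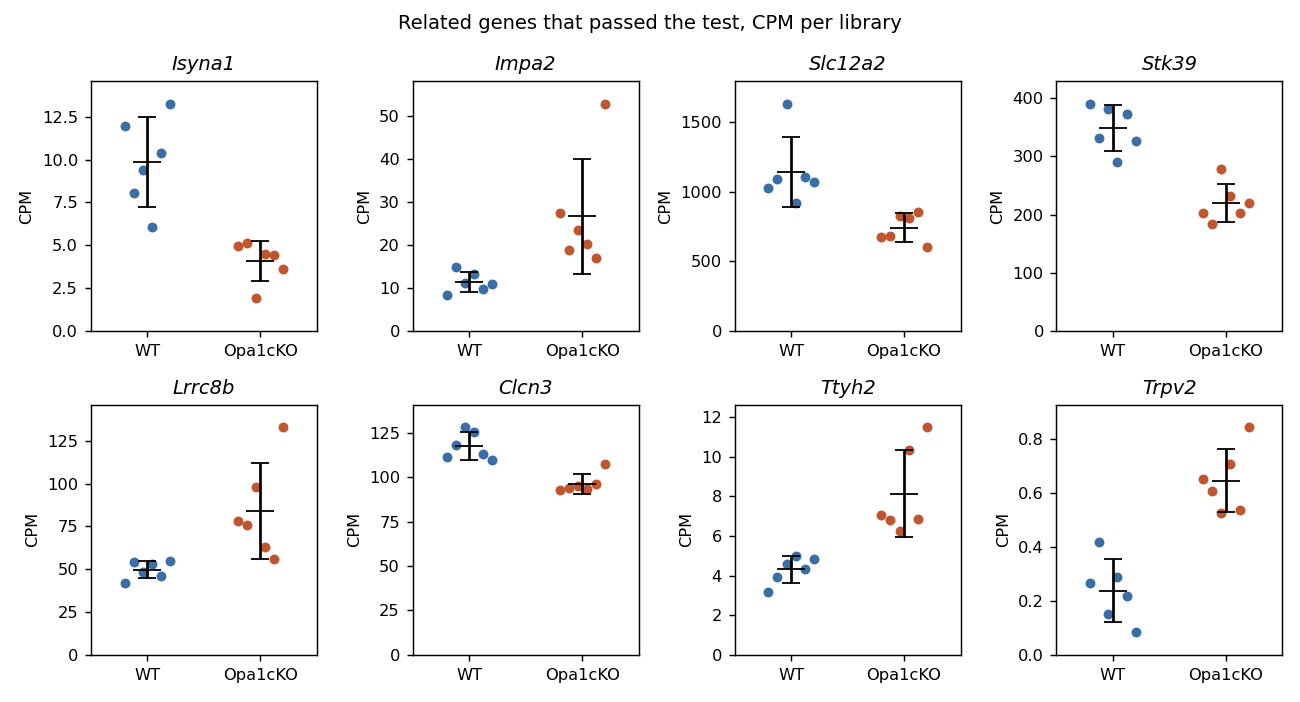
CPM per library of 8 of the 16 related genes that were called, picked after their values were seen, 6 WT and 6 Opa1cKO libraries ordered 1 to 6 from left to right, with the mean and SD in black. The 8 panels are among the 11 of 16 called genes without overlap between genotypes, where 6.41% of all genes tested had none. The 16 were picked by their calls on these same values, so the separation is no further support. Opa1cKO 6 is the highest point for Impa2 (52.9 CPM), Lrrc8b (132.8 CPM), Ttyh2 (11.5 CPM) and Trpv2 (0.843 CPM).

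Of 13 tested osmosensitive and mechanosensitive cation channels, 1 rose and none fell, with a median log2 fold change of 0.064. Trpv2, a relative of Trpv4, rose from 0.0836 to 0.420 CPM in WT to 0.528 to 0.843 CPM in Opa1cKO, without overlap, resting on 4 to 19 reads a WT library and 20 to 36 an Opa1cKO library (log2 fold change 1.63, SE 0.368, adjusted p by edgeR = 0.0130). The call was lost without Opa1cKO 6 (adjusted p = 0.0578) and without the libraries of contradicted sex (adjusted p = 0.210). It was also lost in labelled females (adjusted p = 0.245), in labelled males (adjusted p = 0.119) and over libraries with female-type reads alone (adjusted p = 0.0702). Trpv2 is also a gene of macrophages. The 10 macrophage and leukocyte markers summed to 99.0 to 191 CPM in WT and 96.1 to 118 CPM in Opa1cKO (exact permutation p = 0.0606, 0.247 adjusted over 9 lists), with Csf1r at 116 CPM in WT and 66.2 CPM in Opa1cKO, Cd68 at 15.3 and 38.6 CPM, and Adgre1 and Cd3e at or under 3 reads a library on average. Of the 5 tested markers of this list, 4 had a log2 fold change above 0 and 1 below 0, with a median of 0.18. The part of such cells in the Trpv2 levels was not tested. Piezo1, a stretch-gated channel, was at 91.6 to 146 CPM in WT and 113 to 335 CPM in Opa1cKO (log2 fold change 0.69, adjusted p = 0.108, and 0.29 with adjusted p = 0.482 without Opa1cKO 6), and shares 24.6% of its exon bases with Ctu2 on the other strand. Tmem63b, an osmosensitive channel, had a log2 fold change of -0.25 (adjusted p = 0.0683), and Trpm3 of 0.88 (adjusted p = 0.172), which was 0.12 (adjusted p = 0.882) without Opa1cKO 6.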

How the data were processed

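Total RNA libraries (stranded, ribosomal RNA depleted, 50 ng input, 14 PCR cycles, per the labels' protocols) were aligned by the authors with STAR 2.7.11b to mm10, per the submitters' processing notes. The labels and processing notes used here name no counter, annotation or strand option. The authors deposited whole-number read counts for 32285 genes and TPM values for 32128 symbols. All table columns matched a sample.

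The test was edgeR's quasi-likelihood F test (edgeR 4.0.16 under R 4.3.3) with genotype and labelled sex in the design and robust dispersions. All 12 libraries entered, scaled by TMM, after filterByExpr at a count of 10. Benjamini-Hochberg adjustment ran over 15229 genes. SE is the log2 fold change divided by the square root of F. For the correlations and the marker sums, log2 CPM was log2(CPM + 1). This adds 1 CPM, about 37 to 57 reads, and so narrows differences at low levels. The smallest p of an exact permutation test of 6 against 6, two-sided, is 0.00216. Positions and exons are from GENCODE M21. The fits were checked on simulated counts.

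Alternatives covered the sex term, a replicate block, DESeq2 1.42.0, limma 3.58.1 (voom, and the authors' deposited TPM as log2(TPM + 1) or log2(TPM + 0.1)), other scalings, filters and thresholds, each labelled sex alone, the removal of the 4 libraries of contradicted sex and each library left out. A fit on libraries with female-type reads alone (5 WT, 3 Opa1cKO) was added after the data were seen.

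The 10 genes and the lists were chosen with earlier results of these data known. Named are Opa1, the 10 genes, each list's called genes and up to 4 smallest p, the 3 genes most like Nfat5 and Hspa4l, and, where a marker list stands beside a result, markers among its 2 most abundant genes. Noto and the 8 genes plotted from the lists were chosen after their values were seen. Akr1b7, Akr1b8, Akr1b10, Mrps6, Gm28035, Ctu2, B430212C06Rik and markers at low counts are named as overlaps, copies or floor genes.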

Additional observations from a re-analysis of the deposited data

Results flagged for a closer look

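In each genotype, 34 named genes were examined for a single library standing apart (Dixon's test on 6 libraries), which gave 68 groups. Chance flags about 1 group in 20, and 7 groups were flagged, 4 of them in Opa1cKO 6.

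Nfat5 stood at 275 CPM in Opa1cKO 6, against 179.8 to 215 CPM in the other 5 Opa1cKO libraries. Impa2 stood at 52.9 CPM in the same library, against 17.1 to 27.6 CPM. Clcn3 was at 107.5 CPM there, against 92.6 to 96.0 CPM, and Trpm3 at 2.715 CPM, against 0.592 to 0.879 CPM.

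Among WT libraries, Hspa1a stood at 91.5 CPM in WT 6, against 24.6 to 41.6 CPM in the other 5. Map2k3 was lowest in WT 3 at 39.8 CPM, against 43.4 to 45.4 CPM. Slc12a2 was highest in WT 3 at 1629 CPM, against 917 to 1108 CPM. The reasons for these values were not tested.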

How the results depend on the processing

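Of 240 values of the 8 tested genes under 30 alternatives, 205 kept their direction and side of the threshold, 7 lost a call, 8 gained one and 20 changed sign, all 20 in Nfat5 and Slc6a6. Among the 25 related genes named, none of 748 values changed sign, and 116 lost a call. Calls over the 10 genes, 1 higher and 0 lower with all libraries, became 2 higher without the sex covariate, 3 with DESeq2, 3 at an adjusted p below 0.1, and 0 at 0.01, without the libraries of contradicted sex, in labelled females and in labelled males. With 1 library left out they ran from 0 to 2 higher and from 0 to 1 lower. Calls in the lists, 10 higher and 6 lower, became 17 higher without the sex covariate, 20 with DESeq2, 20 at 0.1, 3 higher and 3 lower at 0.01, 3 and 0 without the libraries of contradicted sex, 2 and 0 in labelled females, 2 and 1 in labelled males, and 3 lower over libraries with female-type reads alone. With 1 library left out they ran from 4 to 13 higher and from 3 to 6 lower. Calls over all genes moved too, from 1558 to 2031 without the sex covariate, 2319 with DESeq2, 2473 at 0.1, 554 at 0.01, 325 without the libraries of contradicted sex, 300 in labelled females, 419 in labelled males and 1107 over libraries with female-type reads. Fits within a labelled sex or without contradicted libraries hold fewer samples. They are also uneven in sex by reads. The WT libraries labelled male, WT 5 and WT 6, have female-type reads, so the labelled males hold no WT library with male-type reads. Without the contradicted libraries, WT 1, WT 2 and WT 3 remain in WT, all with female-type reads. Genotype and sex by reads are therefore partly confounded in these fits. The cause of the changes was otherwise not tested.

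The log2 fold change of Nfat5 changed sign to 0.20 without the libraries of contradicted sex, 0.16 in labelled females, 0.00657 with library totals alone, 0.012 in TPM with either pseudocount and 0.13 over libraries with female-type reads, and ran from -0.14 to 0.050 with 1 library left out. That of Slc6a6 changed sign to -0.0203 with sex as the reads show it, -0.17 without the libraries of contradicted sex, -0.16 in labelled females and -0.0338 over libraries with female-type reads, and ran from -0.028 to 0.12 with 1 library left out. With a replicate block in place of sex the 10 genes gave 1 higher and 0 lower call and the lists 9 and 6. Of the 16 called list genes, 5 (Hspa1a, Hspa1b, Slc44a2, Rcan1 and Clcn3) were not called under that block, and Clcn2 was. Libraries of the same number correlated from -0.356 to 0.14, and 0 of 6 correlated best with its own number. Depth limits Aqp3 and Aqp5, and Trpv2 and Trpm3 could not be fitted at a mean of 1 CPM or more.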
